A study of Mus musculus with 4 samples.

Results

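Alx1 and Alx4, homeobox genes of the Alx family, were followed across 4 facial processes of the mouse embryo. They are 2 of the 43346 gene entries analysed and were taken by gene symbol, with earlier results of these data known. The lateral nasal, the medial nasal, the maxillary and the mandibular process were sampled in wild-type embryos at e11.5 (embryonic day), each as a single library of freshly dissected tissue of mixed cell types. The maxillary and mandibular processes are the parts of the first pharyngeal arch, and the nasal processes form the sides and the midline of the nose. No treatment, allele or transgene separates the groups, and neither the strain nor the number of embryos pooled is stated in the sources used here. The sample named medial nasal in its title and tissue carries the abbreviation of the lateral nasal process in brackets. Since no process had a replicate, no difference was tested against a spread between embryos, and every 95% interval given here covers counting error only.

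Alx proteins are transcription factors that bind DNA through a paired-type homeodomain, often as dimers on palindromic sites. In the embryonic face they are known from the neural crest mesenchyme of the frontonasal region. In humans, loss of ALX1 or ALX4 function causes forms of frontonasal dysplasia, in which the midline of the face and the nose do not form normally. Mouse Alx1 is required for closure of the cranial neural tube, and mouse Alx4 also limits the number of digits at the anterior side of the limb.

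The homeobox, the part of each messenger RNA that encodes the DNA-binding homeodomain, is shown because it is where the pair is most directly comparable, and capitals mark the bases that differ between the genes. Alx1 lies on chromosome 10 from 102998707 to 103030215 of GRCm38 (minus strand) and Alx4 on chromosome 2 from 93642384 to 93681339 (plus strand). The sequences are those of GENCODE M21 transcripts, read 5′ to 3′.
Alx1: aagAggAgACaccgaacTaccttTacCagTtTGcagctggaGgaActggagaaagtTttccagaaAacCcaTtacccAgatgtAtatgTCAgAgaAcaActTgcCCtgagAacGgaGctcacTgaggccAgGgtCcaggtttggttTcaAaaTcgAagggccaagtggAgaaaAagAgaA
Alx4: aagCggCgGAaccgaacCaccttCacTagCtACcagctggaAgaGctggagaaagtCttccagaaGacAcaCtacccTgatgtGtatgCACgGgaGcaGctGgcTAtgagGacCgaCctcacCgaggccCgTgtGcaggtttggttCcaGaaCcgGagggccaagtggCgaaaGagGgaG
Of 180 bases, 138 were identical (76.7%) and 42 differed, 33 of them at the last base of a codon, and 23 of 60 codons had the same bases. In both genes an intron splits the homeobox after base 138. The pieces of Alx1 lie in exon 3 (103025135 to 103025272) and exon 4 (103022264 to 103022305) of 5 exons. Those of Alx4 lie in exon 2 (93668528 to 93668665) and exon 3 (93675296 to 93675337) of 4 exons. No run of 50 bases, the length of a read, was common to transcripts of both genes. Reads of Alx1 and Alx4 could therefore not be exchanged for each other by an exact match. In all 4 libraries the posterior mean count of each gene equalled its estimated count, with a posterior SD of 0.

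Alx1 separated the nasal from the first arch processes, whereas Alx4 differed by less than 2-fold between any 2 of them. Levels are given in CPM, which express each count per 1000000 counts of its library after TMM scaling, a correction for differences in library composition. Lateral nasal tissue held 4332 Alx1 counts (267 CPM), medial nasal tissue 3597 (266 CPM), maxillary tissue 1000 (65.9 CPM) and mandibular tissue 526 (39.0 CPM). Both nasal libraries lay above both first arch libraries. The lower nasal level, that of the medial nasal process, exceeded the higher first arch level, that of the maxillary process, 4.04-fold (interval 3.76 to 4.33), a gap of 2.0 on the log2 scale with a pseudocount of 0.5 CPM. To be called nasal, a gene needed 5 CPM in each nasal library and a level of 2-fold or more over each first arch library. Alx1 was called, as were 0.919% of 12406 genes with at least 5 CPM in some library (114 genes). Of all genes tested, 0.298% had a larger gap than Alx1, and none of the 114 called genes had a higher CPM in its lower nasal library. In bulk tissue, fewer cells that express a gene and less RNA per cell cannot be told apart.

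Alx4 counts numbered 4875 (300.0 CPM) in lateral nasal, 3764 (278 CPM) in medial nasal, 2858 (188 CPM) in maxillary and 2860 (212 CPM) in mandibular tissue. Here too both nasal libraries lay above both first arch libraries, but by less than 2-fold. The medial nasal level exceeded the mandibular level 1.31-fold (interval 1.25 to 1.38), a gap of 0.39 on the log2 scale, and Alx4 was not called. A larger gap than that of Alx4 was found for 3.29% of the genes tested, while the median gap over all of them was -0.21. Alx4 was thus well above the limit of detection in the first arch libraries too.

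**Figure D1:**
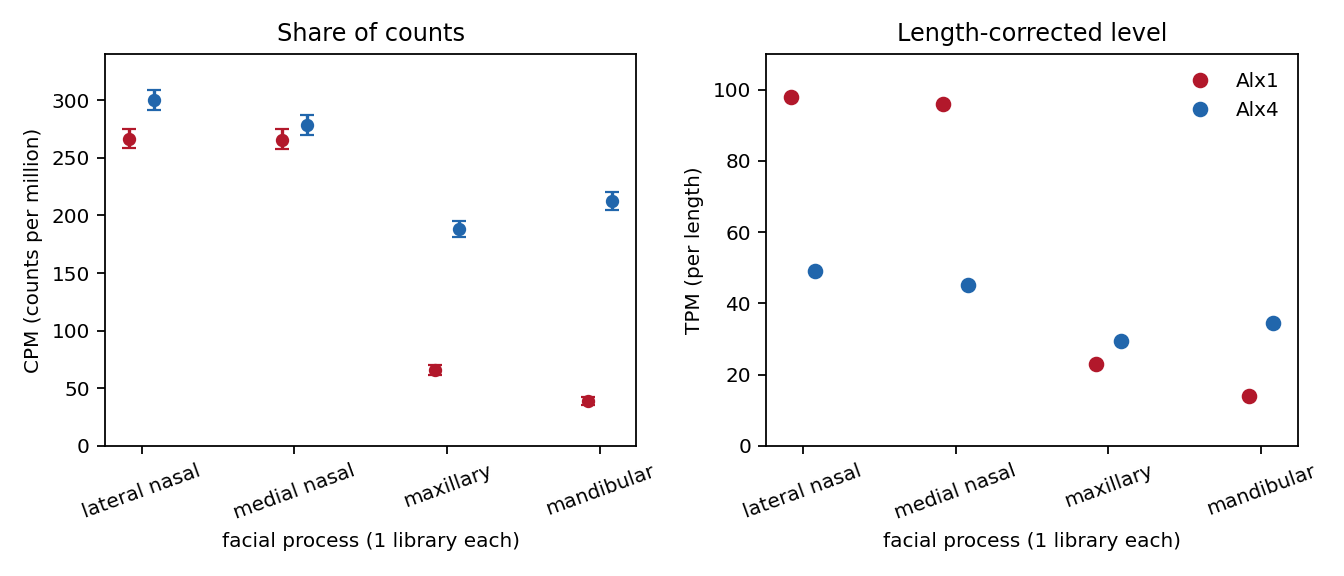
Levels of Alx1 (red) and Alx4 (blue) in the 4 facial processes, as CPM with 95% Poisson intervals for counting error (left) and as TPM, which corrects for transcript length (right), with 1 point per library. Alx1 stood at 267 and 266 CPM in the nasal and at 65.9 and 39.0 CPM in the first arch libraries, and Alx4 was above Alx1 in CPM in each library but below it in TPM in the nasal libraries.

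The order of the processes differed between the genes. For Alx1 the lateral and medial nasal levels were not distinguishable by counting error, with a fold of 1.0 (interval 0.959 to 1.05). The maxillary level of Alx1 exceeded the mandibular level 1.69-fold (interval 1.52 to 1.88), short of the 2-fold threshold that 0.909% of 11877 genes passed in that direction. The order of Alx1 was therefore lateral and medial nasal, then maxillary, then mandibular. Alx4 was highest in the lateral nasal process, 1.08-fold above the medial nasal process (interval 1.03 to 1.13), where 0.618% of 12130 genes were at least 2-fold higher. In contrast to Alx1, its lowest level was that of the maxillary process, at 0.887 of the mandibular level (interval 0.842 to 0.934). All 6 pairs of libraries differed beyond counting error for Alx4, and 5 of 6 did for Alx1. Within the nasal and within the first arch libraries, however, differences as large as those of Alx4 were common. In either direction, they were found for 70.1% of 12130 genes between the nasal and 51.2% of 11877 genes between the first arch libraries.

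Between single processes, Alx1 was called in each of the 4 pairs of a nasal with a first arch library. The lateral nasal level was 4.05-fold above the maxillary level (interval 3.78 to 4.34), in a pair where 1.78% of 11869 genes were at least 2-fold higher. Against the mandibular process, the lateral nasal level of Alx1 was 6.83-fold higher (interval 6.24 to 7.49), and 2.51% of 12047 genes were at least 2-fold higher there. The medial nasal level was 6.81-fold above the mandibular level (interval 6.21 to 7.48), in a pair where 3.65% of 12206 genes passed the threshold. Between the medial nasal and maxillary processes 3.96% of 12153 genes passed it. The 2-fold threshold alone is thus passed by a few percent of genes in each of these pairs, and the size of the Alx1 difference was matched by fewer. A difference in the same direction and at least as large was found for 0.463% of genes with lateral nasal over maxillary tissue and 0.390% with lateral nasal over mandibular tissue. With medial nasal tissue on top, the shares were 1.09% over maxillary and 0.672% over mandibular tissue. In the opposite directions, where neither Alx gene was called, 1.11% of genes were at least 2-fold higher in maxillary than in lateral nasal tissue. The share was 2.46% for mandibular over lateral nasal tissue, and 1.18% for maxillary and 1.83% for mandibular over medial nasal tissue. Likewise 2.05% were at least 2-fold higher in medial than in lateral nasal tissue and 1.84% in mandibular than in maxillary tissue. For Alx4 the folds in these 4 pairs ran from 1.31 to 1.59, and none was called. The corresponding shares of genes with a difference as large as that of Alx4 ran from 3.30% to 10.4%. These pairs share libraries, so they are not independent of each other.

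**Figure D2:**
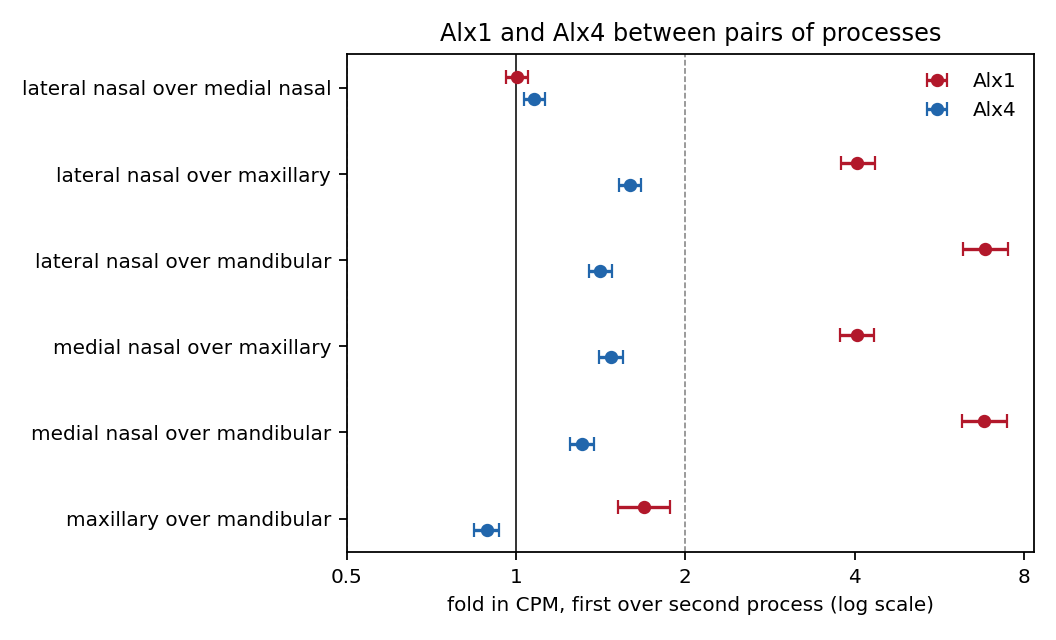
Fold in CPM of Alx1 (red) and Alx4 (blue) for the 6 pairs of processes, first named over second, on a log scale, with 95% exact intervals for counting error from 1 library per process. The solid line marks equal levels and the dashed line 2-fold: Alx1 lies at 4.04 to 6.83 in the 4 pairs of a nasal with a first arch library, and Alx4 at 1.31 to 1.59.

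Which of the genes was the more abundant depended on the process. TPM is used here, since only a level per length can be compared between genes: the mean transcript length estimated for Alx4, 5373 to 5426 bases, was more than that of Alx1, 2501 to 2504 bases, and both were nearly constant between libraries. Alx1 stood at 98.0 TPM in the lateral nasal process, where Alx4 stood at 49.0 TPM, and at 96.1 TPM in the medial nasal process, where Alx4 stood at 45.1 TPM. The ratio of Alx1 to Alx4 was 2.0 in lateral nasal (interval 1.92 to 2.08) and 2.13 in medial nasal tissue (interval 2.03 to 2.23). Alx1 was thus the more abundant transcript in both nasal libraries. In the maxillary process Alx1 stood at 23.1 TPM and Alx4 at 29.5 TPM, a ratio of 0.782 (interval 0.727 to 0.841). In the mandibular process Alx1 stood at 14.1 TPM and Alx4 at 34.4 TPM, a ratio of 0.410 (interval 0.373 to 0.450), so that Alx4 was the more abundant transcript in both first arch libraries.

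The change of this ratio between libraries does not depend on how the libraries are scaled. In counts, the ratio of Alx1 to Alx4 in the lateral nasal library was 2.54 times that in the maxillary library (interval 2.34 to 2.76) and 4.83 times that in the mandibular library (interval 4.36 to 5.36). In the medial nasal library it was 2.73 times the maxillary (interval 2.51 to 2.98) and 5.20 times the mandibular ratio (interval 4.68 to 5.77). Within the first arch, the maxillary ratio was 1.90 times the mandibular ratio (interval 1.69 to 2.14). The nasal libraries were nearly alike, the lateral nasal ratio being 0.930 of the medial nasal ratio (interval 0.874 to 0.989). In unscaled counts Alx4 exceeded Alx1 in every library, with Alx1 contributing 47.1% of the counts of both genes in lateral nasal (exact binomial interval 46.0 to 48.1) and 48.9% in medial nasal tissue (47.7 to 50.01), against 25.9% in maxillary (24.5 to 27.3) and 15.5% in mandibular tissue (14.3 to 16.8).

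**Figure D3:**
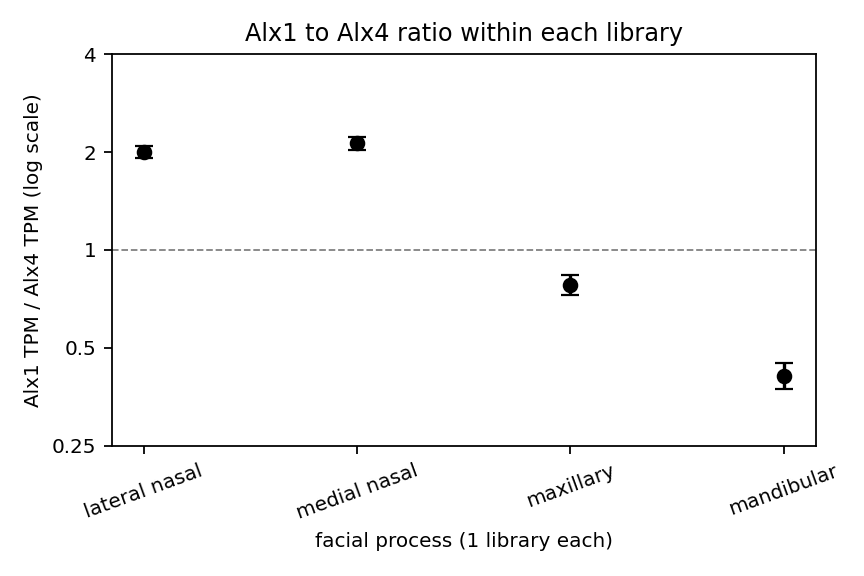
Ratio of Alx1 to Alx4 in TPM within each library, on a log scale, with 95% exact intervals for counting error and a dashed line at equal levels. The nasal libraries lie at 2.0 and 2.13, above the line, and the maxillary and mandibular libraries at 0.782 and 0.410, below it.

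The combined level of the pair fell into 2 tiers. The counts of both genes summed to 567 CPM (interval 555 to 578) in the lateral nasal and 544 CPM (interval 532 to 557) in the medial nasal process. They summed to 254 CPM (interval 246 to 262) in the maxillary and 251 CPM (interval 243 to 260.0) in the mandibular process. In CPM the first arch sums overlapped within counting error although each gene alone differed between these libraries. The lower Alx1 level of the mandibular process stood beside a higher Alx4 level. Sums of counts give the longer transcripts of Alx4 more weight. In TPM the sums were 147 in lateral and 141 in medial nasal tissue, against 52.64 in maxillary and 48.55 in mandibular tissue.

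Among all protein-coding genes, Alx1 ranked high in the nasal processes. In the lateral and medial nasal libraries 3.57% and 3.19% of protein-coding genes with a TPM above 0 lay above Alx1, against 19.9% in maxillary and 31.8% in mandibular tissue. For Alx4 these shares were 8.23% and 8.29% in the nasal and 15.1% and 12.9% in the first arch libraries. Paired-class homeobox genes, the group that Alx1 and Alx4 belong to, include the mesenchymal genes Prrx1 and Prrx2, the neural crest genes Pax3 and Pax7 and the head genes Otx2 and Pitx1. In a list of 32 such genes with an entry, members included, Alx1 had the highest TPM in both nasal libraries and ranked 4 in maxillary and 6 in mandibular tissue. Alx4 ranked 4 in both nasal libraries, 3 in maxillary and 5 in mandibular tissue. Prrx1 followed the opposite pattern to Alx1, with 82.0 TPM in lateral and 60.9 TPM in medial nasal tissue, against 177 TPM in maxillary and 178 TPM in mandibular tissue. Prrx2 was spread without a division between nasal and first arch libraries, at 82.4 TPM in lateral and 60.4 TPM in medial nasal tissue, against 74.1 TPM in maxillary and 36.2 TPM in mandibular tissue.

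**Figure D4:**
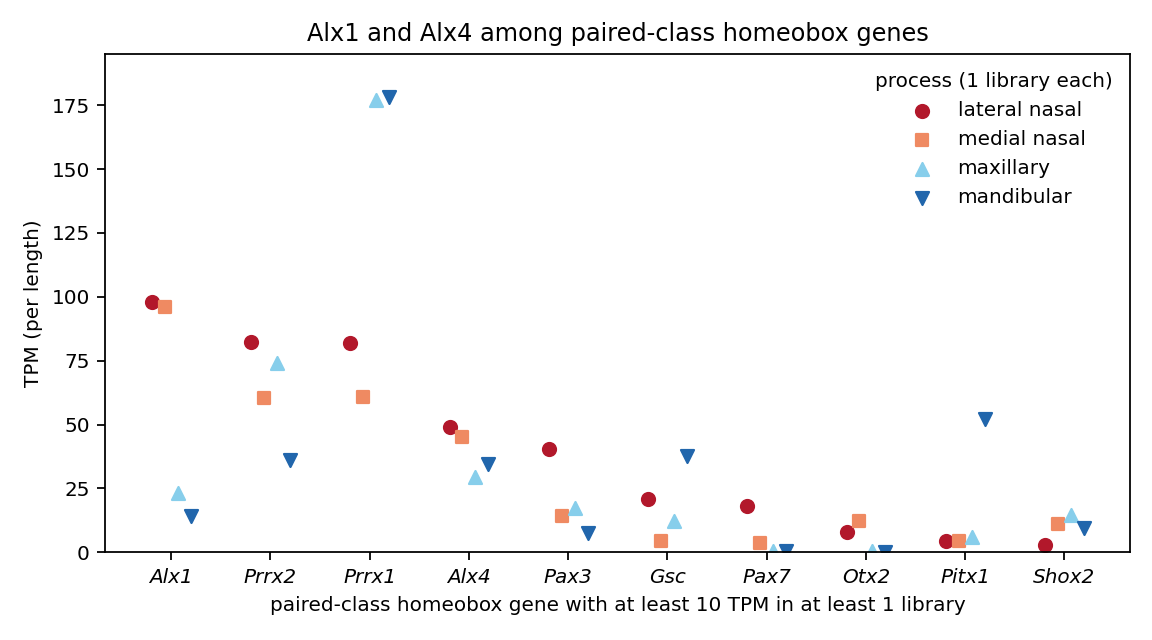
TPM in each process, 1 library each and no error bars, of the 10 genes in a list of 32 paired-class homeobox genes that reached 10 TPM in at least 1 library. Alx1 has the highest nasal values, 98.0 and 96.1 TPM, and Prrx1 the highest first arch values, 177 and 178 TPM.

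Of the other paired-class genes, 30 of 31 listed had an entry, 16 reached 1 CPM in some library and 12 reached 5 CPM. Both nasal libraries were called higher for 4 of them and both first arch libraries for 1, against 0.919% and 0.266% of all genes tested. Pax7, a regulator of neural crest and nasal mesenchyme, stood at 113 CPM in lateral and 21.1 CPM in medial nasal tissue, against 4.08 CPM in maxillary and 3.49 CPM in mandibular tissue. Otx2, a gene of the anterior head, stood at 15.4 CPM in lateral and 23.2 CPM in medial nasal tissue, against 0.988 CPM in maxillary tissue, with 0 counts in the mandibular library, where 3 counts correspond to 0.223 CPM. Pax6, a gene of the eye and the olfactory placode, had 16.1 CPM in lateral and 10.6 CPM in medial nasal tissue, against 3.23 CPM in maxillary and 0.371 CPM in mandibular tissue. Dmbx1, known from the developing midbrain, had 7.32 CPM in lateral and 6.50 CPM in medial nasal tissue, against 0.922 CPM in maxillary tissue and 0 counts in mandibular tissue. None of these 4 genes approached the nasal CPM of Alx1. Prrx1 was the gene called higher in the first arch, with 379 CPM in lateral and 282 CPM in medial nasal tissue, against 888 CPM in maxillary and 864 CPM in mandibular tissue. Pax3 had 155 CPM in lateral and 55.1 CPM in medial nasal tissue, against 69.4 CPM in maxillary and 29.5 CPM in mandibular tissue, and was not called. Pitx1, a regulator of jaw and hindlimb identity, was high in the mandibular process alone, at 126 CPM against 10.8 to 15.3 CPM elsewhere. The median log2 difference between the mean of the nasal and the mean of the first arch libraries was 0.72 over the 16 measured genes, beside -0.01 over all genes with at least 1 CPM. It was 2.38 for Alx1 and 0.53 for Alx4.

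Regulators and partners of frontonasal mesenchyme were divided in the same direction for some members. Of 19 genes tested, 4 were called higher in the nasal libraries and 0 in the first arch libraries, beside 0.919% and 0.266% of all genes tested, with a median log2 difference of 0.56. Tfap2b, an AP-2 transcription factor gene of the cranial neural crest, had 109 CPM in lateral and 206 CPM in medial nasal tissue, against 41.2 CPM in maxillary and 22.3 CPM in mandibular tissue. Foxc1, a forkhead gene of the periocular and cranial mesenchyme, had 42.5 CPM in lateral and 60.5 CPM in medial nasal tissue, against 10.2 CPM in maxillary and 15.0 CPM in mandibular tissue. Eya2, which encodes a transcriptional cofactor, had 35.8 CPM in lateral and 34.5 CPM in medial nasal tissue, against 12.1 CPM in maxillary and 14.8 CPM in mandibular tissue. Pax7, counted in the list above as well, was the other called member. Of the most abundant members, Msx1, a homeobox gene of undifferentiated mesenchyme, had 266 CPM in lateral and 192 CPM in medial nasal tissue, against 239.5 CPM in maxillary and 115 CPM in mandibular tissue, so that the groups overlapped. Zeb2, a zinc finger gene of neural crest cells, and Eya1, a relative of Eya2, ranged from 169 to 275 and from 83.6 to 145 CPM and were not called. Lef1, which encodes a mediator of Wnt signals that can bind Alx4, had its top level, 237 CPM, in maxillary tissue, against 65.1 to 109.7 CPM elsewhere.

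In the hedgehog and retinoic acid pathways, which pattern the frontonasal tissue, no gene was called and differences lay in both directions. Hedgehog signals act through the receptor Ptch1 and the Gli factors, and in the limb of Alx4 mutant mice Shh is expressed at an additional site. Of 13 hedgehog genes measured, 12 were tested and 0 called in either direction, beside 0.919% (nasal) and 0.266% (first arch) of all genes tested, so that a count of 0 is near the background. The median log2 difference was -0.16, and 5 of the 13 lay above 0. Gli3 stood at 250.3 CPM in lateral and 218 CPM in medial nasal tissue, against 260.2 CPM in maxillary and 262 CPM in mandibular tissue. The response genes Ptch1 and Gli1 were lowest in the lateral nasal process, at 76.6 and 21.6 CPM. The co-receptor gene Cdon stood at 322 CPM in lateral and 237 CPM in medial nasal tissue, against 148 CPM in maxillary and 192 CPM in mandibular tissue, and Smo, the signal transducer, at 224 to 241 CPM. Of 18 genes of retinoic acid synthesis, transport, reception and breakdown, 17 were tested and 0 called, again near the background shares of 0.919% and 0.266%, with a median of -0.02. Aldh1a3, the gene of a retinaldehyde dehydrogenase that makes retinoic acid, was higher in both nasal libraries than in both first arch libraries, with 92.7 CPM in lateral and 31.4 CPM in medial nasal tissue, against 17.0 CPM in maxillary and 3.56 CPM in mandibular tissue. Its medial nasal level was less than 2-fold above its maxillary level, so it was not called, although its log2 difference of 2.69 exceeded that of Alx1, 2.38. Within that list Crabp1, a retinoic acid binding protein gene of neural crest cells, had 363 CPM in lateral and 377 CPM in medial nasal tissue, against 213 CPM in maxillary and 101 CPM in mandibular tissue. Crabp2 and Rarg, also abundant, ranged from 143 to 216 and from 99.3 to 132 CPM, and Rxra from 89.1 to 105 CPM.

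First arch patterning genes were mostly higher in the first arch libraries. Of 17 genes, 16 were measured, 14 tested, 0 called in the nasal and 5 in the first arch libraries (Dlx1, Dlx2, Barx1, Lhx6 and Lhx8), beside 0.919% and 0.266% of all genes tested, with a median of -1.33. Barx1, a gene of the oral mesenchyme, had 15.3 CPM in lateral and 7.76 CPM in medial nasal tissue, against 119 CPM in maxillary and 120.0 CPM in mandibular tissue. Of the other abundant members, Meis2 stood at 103 CPM in lateral and 86.6 CPM in medial nasal tissue, against 209 CPM in maxillary and 200.4 CPM in mandibular tissue, Pou3f3 ranged from 23.5 to 193 CPM and the endothelin receptor gene Ednra from 72.9 to 84.0 CPM, and none of them was called. Lhx6, Dlx1, Lhx8 and Dlx2 had at most 4.49, 7.32, 15.3 and 3.47 CPM in the nasal libraries and at least 44.2, 61.2, 67.0 and 12.1 CPM in the first arch libraries. The lists of pathways and partners were assembled with earlier results of these data known and are not independent evidence of a direction.

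**Figure D5:**
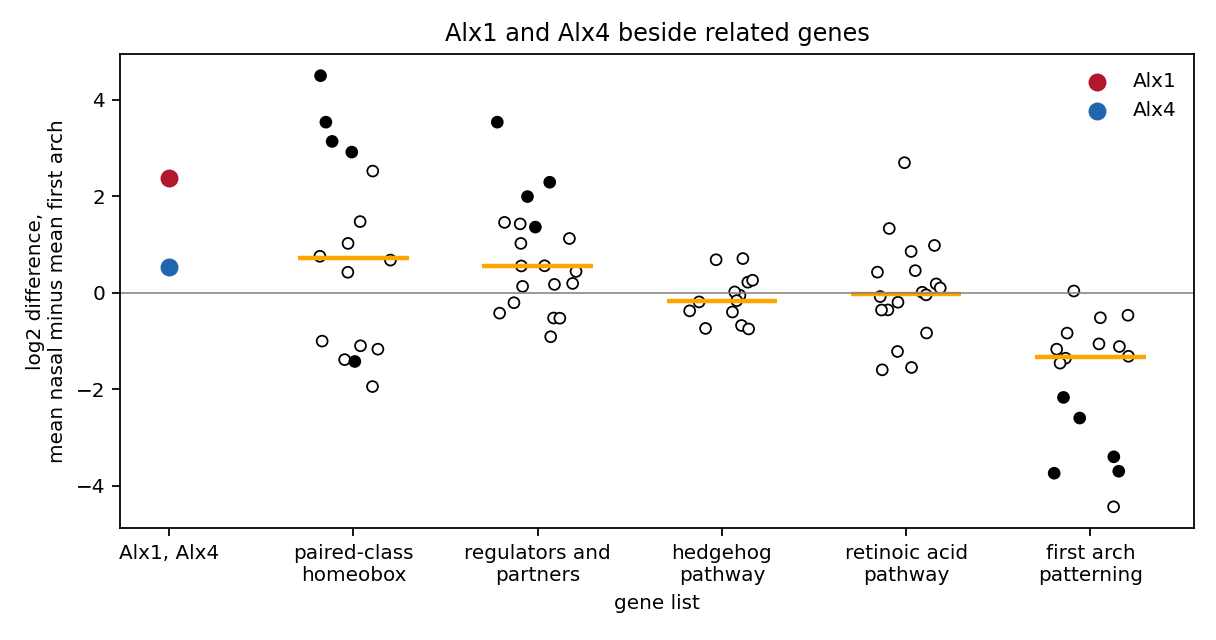
Log2 difference between the mean of the nasal and the mean of the first arch libraries, after adding 0.5 CPM, for Alx1, Alx4 and the members of 5 gene lists with at least 1 CPM in some library, from 1 library per process. Filled black points are called in either direction and orange lines are list medians, 0.72, 0.56, -0.16, -0.02 and -1.33 from left to right, beside 2.38 for Alx1 and 0.53 for Alx4.

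The levels were also set against markers of the cell types that the dissected tissue can hold. Summed over 13 mesenchymal markers, among them Pdgfra and the collagen genes Col1a2 and Col3a1, the libraries had 4057 CPM in lateral and 4480 CPM in medial nasal tissue, against 5369 CPM in maxillary and 5030 CPM in mandibular tissue. The nasal libraries thus had the lower sum of these markers. Prrx1 alone made up 379 CPM of it in lateral and 282 CPM in medial nasal tissue, against 888 CPM in maxillary and 864 CPM in mandibular tissue. Whether the processes differed in their share of mesenchyme was not tested. Per 1000 counts of these markers, Alx1 had 65.7 and 59.3 counts in the lateral and medial nasal libraries, against 12.3 and 7.76 in the maxillary and mandibular libraries. The gap of Alx1 between the nasal and first arch libraries was 4.84-fold on this basis, against 4.04-fold in CPM. For Alx4 the values were 73.9 and 62.1 counts in the lateral and medial nasal libraries, against 35.1 and 42.2 in the maxillary and mandibular libraries, a gap of 1.47-fold. Of the 13 markers, 3 (Prrx1, Postn and Dcn) were called higher in the first arch and 0 in the nasal libraries. The log2 difference was above 0 for 4 of the 13, with a median of -0.55. For Col1a2 and Col3a1 it was 0.03 and 0.02, so these abundant markers hardly differed.

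Some markers of other cell types differed between nasal and first arch libraries as well, and not all members of a list in 1 direction. The shares of all genes tested that were called, 0.919% in the nasal and 0.266% in the first arch direction, apply to each count of called markers. The sum of 14 epithelial markers was 531 CPM in lateral and 464 CPM in medial nasal tissue, against 429 CPM in maxillary and 317 CPM in mandibular tissue, and 3 (Cldn7, Krt8 and Krt18) were called higher in the nasal libraries. The log2 difference was above 0 for 9 of the 14, while the basal keratin genes Krt5 and Krt14 had -0.61 and -0.73. The sum of 10 neuronal markers was 249 CPM in lateral and 430 CPM in medial nasal tissue, against 236 CPM in maxillary and 115 CPM in mandibular tissue, with Elavl3, Elavl4 and Neurod1 called higher in the nasal libraries. Of these 10, 8 had a difference above 0, and the neurofilament genes Nefl and Nefm had -0.71 and -0.94. For 10 genes of the olfactory placode and pit it was 134 CPM in lateral and 181 CPM in medial nasal tissue, against 41.8 CPM in maxillary and 78.5 CPM in mandibular tissue, with Sp8, Lhx2, Fezf1 and Gata2 called higher in the nasal libraries and Sp8 and Fezf1 at 0 counts in the mandibular library. The difference was above 0 for 7 of these 10, and was -1.06 for Dlx5, -0.14 for Ebf2 and -0.11 for Emx2. The sum of 11 skeletal muscle markers was 38.3 CPM in lateral and 21.1 CPM in medial nasal tissue, against 279 CPM in maxillary and 823 CPM in mandibular tissue, and 7 of them (Myog, Actc1, Ttn, Neb, Myh3, Myh8 and Tnnt1) were called higher in the first arch, while Tnnc1 had 0 counts in the medial nasal library. Of the lists of forebrain, eye, endothelial, Schwann cell precursor, erythroid and leukocyte markers, none had a called member. The forebrain sum, highest in the medial nasal library, was 288 CPM there and 150.0 to 162 CPM in the other 3. Eye markers summed to 31.4 CPM in lateral and 1.18 CPM in medial nasal tissue, against 10.01 CPM in maxillary and 1.11 CPM in mandibular tissue, with Cryaa, Tyr and Tyrp1 at 0 counts in the medial nasal and mandibular libraries and Mlana at 0 counts in the medial nasal library. Endothelial markers summed to 278 to 321, Schwann cell precursor markers to 58.5 to 102, erythroid markers to 3068 to 4807 and leukocyte markers to 26.2 to 30.5 CPM. The part of these cell types in the levels of Alx1 and Alx4 was not tested.

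The genomic neighbours were examined for a shared pattern. Gm17028, a long noncoding RNA gene, overlaps the start of Alx1 on the same strand. It had 91 counts (5.60 CPM) in lateral and 84 counts (6.21 CPM) in medial nasal tissue, against 23 counts (1.51 CPM) in maxillary and 17 counts (1.26 CPM) in mandibular tissue, and was called higher in the nasal libraries. Transcripts of Gm17028 hold 194 of the 5888 distinct 50-base sequences of Alx1 (3.29%), so that reads from these stretches fit both genes. These transcripts are of GENCODE M21, whereas the counting used GENCODE M4. The posterior SD of the Alx1 count was 0 in all 4 libraries. Ext2, which encodes an enzyme of heparan sulfate synthesis, overlaps Alx4 on the opposite strand and stood at 62.2 CPM in lateral and 64.9 CPM in medial nasal tissue, against 60.3 CPM in maxillary and 58.9 CPM in mandibular tissue. The library kit keeps the strand, but whether the counting used it is not stated in the sources, and without it reads from overlapping stretches of Alx4 and Ext2 cannot be told apart. Of Alx4, 0.113% of 7055 distinct 50-base sequences occur in the same orientation in another gene. Lrriq1, 15.8 kb from Alx1, had 1.91 CPM in lateral and 11.2 CPM in medial nasal tissue, against 0.593 CPM in maxillary and 0.445 CPM in mandibular tissue, and was not called because its lateral nasal level was below 5 CPM. Farther from Alx1, Rassf9 had 8.12 CPM in lateral and 5.03 CPM in medial nasal tissue, against 11.7 CPM in maxillary and 3.93 CPM in mandibular tissue. Slc6a15 and Nts stayed between 0.985 and 5.03 CPM, Mgat4c had at most 3 counts and Gm21293 had 0 counts. Around Alx4, Cd82, Tspan18 and Accs stood at 6.16 to 30.5 CPM and were not called, and Gm10803, Accsl and Gm13889 had at most 10 counts. Apart from Gm17028, no listed neighbour was called.

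The genes with the most similar pattern over the 4 libraries were sought among 8170 protein-coding genes with at least 20 CPM in some library, by the root mean square difference of centred log2 levels. The nearest to Alx1 was Plch1, a phospholipase C gene, at 0.07, with 39.2 CPM in lateral and 40.1 CPM in medial nasal tissue, against 10.1 CPM in maxillary and 6.16 CPM in mandibular tissue. It was followed by Elavl4, Ano1, Id4, Cldn11, Tfap2b, Thsd7b and Lrp2, at 0.14 to 0.38. The nearest to Alx4 were Stat5b, Ano10, Cdh1, Hook1, Ikzf2, Sft2d2, Galnt7 and Mertk, at 0.03 to 0.07, all within the flatter profile that many genes had. Within 0.25 lay 4 genes for Alx1 and 1217 for Alx4. Alx4 itself lay at 0.98 from Alx1 and ranked 225 among the genes most like it. From Alx4 the rank of Alx1 was 8090 of 8170, among the most distant genes by this measure. The measure counts the size of differences between libraries as well as their direction, and the range over the libraries was larger for Alx1. Both genes were higher in both nasal than in both first arch libraries, so this rank does not mean opposite patterns. These lists are descriptions over 4 points that share libraries, and they changed with the measure: Tfap2b stayed in the list of Alx1 with TPM and without centring, Plch1 with a Pearson correlation, and Plch1 and Elavl4 with a minimum of 5 CPM.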

How the data were processed

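RNA-seq of 4 facial processes was analysed, with 1 library per process. Per the labels and the study's methods, the authors depleted ribosomal RNA, made strand-specific libraries and obtained single-end 50-base reads. STAR placed the reads on mm10, and RSEM 1.4.1 with GENCODE M4 turned them into estimated gene counts. The deposited expected counts and posterior mean counts are unscaled, and the deposited TPM are corrected for transcript length. Expected counts of 43346 entries were rounded. Symbols, positions and transcripts came from GENCODE M21 on GRCm38, the build of mm10. A symbol was found for 42462 entries and not for 884.

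CPM used library totals, 13216199 to 16163913 counts, multiplied by TMM factors (edgeR 4.0.16), for which a gene needed 10 counts in 1 or more libraries. A count of 3 corresponded to 0.185 to 0.223 CPM. Fold intervals are exact (Clopper-Pearson) binomial intervals conditional on the sum of both counts, ratios of ratios have exact conditional intervals, and single levels have exact Poisson intervals. No p-value is given. Calls required 5 CPM and 2-fold, and list medians used members with at least 1 CPM in some library.

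The rule for named genes took Alx1 and Alx4, the 8 most similar genes of each, 3 protein-coding neighbours on each side and overlapping genes, the called and the 4 most abundant members of 5 pathway lists, and called members or markers at 0 of 11 cell type lists. Gli1, Aldh1a3, Pdgfra, Col1a2, Col3a1, Krt5, Krt14, Nefl, Nefm, Dlx5, Ebf2 and Emx2 fall outside it and were chosen after their values were seen. The members and lists were chosen with earlier results of these data known. No other Alx gene is reported here, and not every marker at 0 is named. The alternatives were size factors of DESeq2 1.42.0, total counts, protein-coding genes alone, TPM, posterior mean counts, pseudocounts of 0.1 and 2, other minimum levels, a 3-fold threshold and other measures of likeness. The call rule was tested on simulated counts, which held counting error but no variation between embryos or dissections.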

Additional observations from a re-analysis of the deposited data

How the results depend on the processing

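The folds of Alx1 and Alx4, the gaps between nasal and first arch libraries and the ratios between the genes gave 114 values under the alternatives, all within the counting interval of the value reported. These intervals hold no variation between embryos. Not all of these values are separate or could move. Posterior mean counts equalled the estimated counts of both genes, so the ratios between the genes were fixed under that alternative. The gap of each gene is the smallest of its folds of a nasal over a first arch library, so it repeats a value of a pair. Alx1 was called higher in the nasal libraries, and Alx4 was not, under each scaling, pseudocount, minimum level and threshold tried. The number of genes called, which sets the background, moved more: 42 genes were higher in both nasal libraries with the deposited TPM. With minimum levels of 1 and 20 CPM and with none, 192, 23 and 208 were higher in both nasal and 66, 16 and 70 in both first arch libraries, and a 3-fold threshold gave 47 and 19. Of the 8 genes most similar to Alx1, 1 was shared with TPM, 2 with a minimum of 5 CPM, 1 with a Pearson correlation and 1 without centring; for Alx4 these numbers were 0, 3, 2 and 0. No paired analysis was possible because each process had 1 library. Depth limits the precision of genes near 3 counts per library, but not of Alx1 or Alx4, which had at least 526 counts.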
